A study of Mus musculus with 20 samples.

Results

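Low carbon dioxide and sodium hydroxide were compared for how each changed the transcripts of NIH3T3 cells, a line of mouse embryonic fibroblasts, between 2 and 4 h of exposure. The measure was an interaction, the log2 change of a gene between 2 and 4 h at 1% CO2 minus its log2 change over the same interval with NaOH. It was positive where the later libraries stood higher, relative to the earlier ones, at 1% CO2 than with NaOH. It was computed for 9726 of 11075 genes, those whose normalized count averaged 5 or more, and it used 16 of the 20 libraries of the series, 4 in each group.

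The cells were plated in dishes, in a medium with 18 mM sodium bicarbonate, and were exposed on day 4. The low CO2 groups spent 4 h or 2 h at 1% CO2. The others were cells kept at 5% CO2 with 18 mM NaOH in the medium for 4 h or 2 h, and untreated control cells taken at 0 h from 5% CO2. The NaOH groups were the study's control for alkaline medium, since lowering CO2 also raises the pH. The control group had no weight in the interaction and is given as a level to compare with. The series holds no untreated libraries of the later times, so a difference from the control cannot be told apart from an effect of elapsed time. NIH3T3 is 1 cell line, and although the study describes the samples of a group as biological replicates, the labels give no culture or day of origin, so p-values speak only for the variation among these samples. Replicate 3 of 2 h of 1% CO2 stood apart from its group, with a chi-square per degree of freedom of 10.8 to 11.5 against the other 3 libraries, which gave 2.49 to 3.74 among themselves. Pairs in the other groups gave 2.19 to 6.82. Replicate 2 of 4 h of 1% CO2 stood apart to a lesser degree, with 5.83 to 6.82, while the rest of its group gave 2.19 to 3.41 among themselves.

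Carbon dioxide dissolves to carbonic acid, and cells sense both the dissolved gas and the pH it sets. Sudden stress or growth signals switch on immediate early genes, which encode short-lived transcription factors such as the FOS, ATF and NR4A proteins, within minutes and without new protein synthesis, and their transcripts are cleared soon after. In fibroblasts, the co-activators YAP and MRTF, together with the DNA-binding proteins TEAD and SRF, drive genes of cell attachment and the matrix such as Ctgf and Ankrd1, while TGFβ and BMP signals drive the inhibitory SMADs and the Id genes. Sterol shortage activates SREBP2, the transcription factor of the cholesterol synthesis enzymes.

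Of the genes tested, 437 were called. A call required passing a false discovery rate of 0.05 in edgeR's quasi-likelihood test, by Benjamini-Hochberg adjustment, and an interaction of 1 or more in size on the log2 scale. For 252 genes, 2.59% of those tested, the interaction was higher than 0, and for 185 genes, 1.9%, it was lower. Without replicate 3 of 2 h of 1% CO2 these counts were 261 and 180, and 382 of the 437 genes were called again. With libraries scaled by their total counts alone the counts were 220 higher and 221 lower, and a test against the size threshold itself (glmTreat) left 38 and 3. The median over all tested genes was -0.01. The change between 2 and 4 h was larger in size with NaOH than at 1% CO2 in 362 of the 437 genes, beside 5902 of all 9726 tested genes.

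Between 2 and 4 h of 1% CO2, 65 genes were called higher at 4 h (0.668% of those tested) and 64 lower (0.658%). With libraries scaled by their total counts alone, these became 50 and 77. Between 2 and 4 h of NaOH, 265 genes were called higher (2.72%) and 396 lower (4.07%). Among the 252 genes of higher interaction, 153 fell with NaOH with no called change at 1% CO2, 7 fell in both treatments, 8 rose at 1% CO2 with no called change with NaOH, and 84 had no called change in either. Among the 185 genes of lower interaction, 87 rose with NaOH with no called change at 1% CO2, 1 rose in both, 8 fell at 1% CO2 with no called change with NaOH, and 89 had no called change in either. Without replicate 3 of 2 h of 1% CO2, the genes that rose at 1% CO2 with no called change with NaOH numbered 14 and those that fell there 5. No called gene had changes called in opposite directions, where each change had to be 1 or more in size. A change that was not called either missed the adjusted p or was under that size. Some called genes had opposite changes that passed the adjusted p under that size, such as Chac1 and Atxn1 below.

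**Figure D1:**
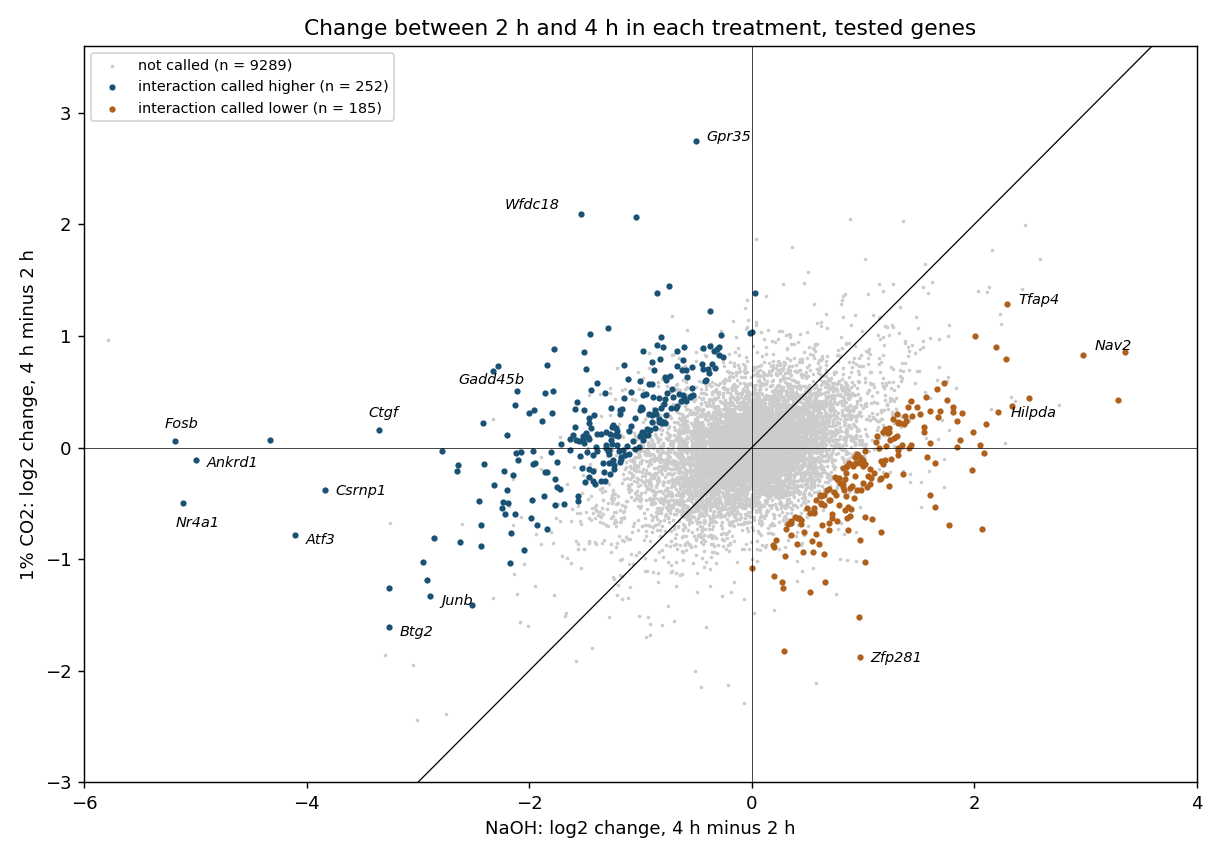
Log2 change between 2 and 4 h at 1% CO2 (vertical axis) against that with NaOH (horizontal axis), 1 point per tested gene. The diagonal marks equal change in both treatments. The 252 genes of higher interaction lie above it and the 185 of lower interaction below it, with Fosb, Ankrd1 and Nr4a1 far to the left near 0 on the vertical axis, and 3 genes, none of them called, lie outside the axes.

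Most of the largest positive interactions belonged to transcripts that stood highest in the libraries of 2 h of NaOH. Fosb, which encodes a FOS family transcription factor (chromosome 7, 19302696 to 19310118 of GRCm38), had 1.83, 3.49, 1.24 and 0 normalized counts in the 4 libraries of 4 h of 1% CO2, against 2.10, 0.810, 2.78 and 1.12 at 2 h. With NaOH it had 27.96, 25.2, 9.71 and 11.6 at 4 h, against 759, 649, 708 and 630 at 2 h. A normalized count here is a count of molecules scaled to the mean library size, about 3396000. The 1% CO2 groups overlapped, at 0 to 3 molecules per library, and the interaction of 5.25 ± 1.11 (± SE, adjusted p = 0.00124), a fitted value that rests on these few molecules, came from the -5.18 log2 change with NaOH.

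Nr4a1, an orphan nuclear receptor of the immediate early class, had 38.4, 44.2, 7.43 and 25.3 at 4 h of 1% CO2, against 46.3, 32.4, 38.95 and 53.9 at 2 h. With NaOH the values were 98.3, 85.9, 60.2 and 43.3 at 4 h, against 2200, 2192, 2868 and 2776 at 2 h. The control libraries had 18.9, 18.3, 26.7 and 19.2. All 4 libraries of 2 h of NaOH thus lay far above every other library, and the interaction was 4.61 ± 0.47 (adjusted p = 3.95e-06), from -0.50 ± 0.37 at 1% CO2 (adjusted p = 0.398) and -5.11 ± 0.24 with NaOH.

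Atf3, a stress-induced repressor, had 30.1, 56.98, 38.4 and 34.8 at 4 h of 1% CO2, against 66.3, 83.4, 58.4 and 65.1 at 2 h, and with NaOH 48.3, 50.4, 43.7 and 28.5 at 4 h, against 633, 680, 876 and 757 at 2 h. Its 4 h libraries of both treatments overlapped, and they lay below the control libraries at 66.9, 67.7, 73.5 and 65.6. The interaction was 3.32 ± 0.25 (adjusted p = 2.96e-12). For Csrnp1, a nuclear protein, the values were 10.96, 13.9, 4.95 and 6.32 at 4 h of 1% CO2, against 10.5, 14.6, 13.9 and 8.98 at 2 h. They were 46.6, 35.5, 30.1 and 20.1 at 4 h of NaOH, against 395, 387, 526 and 600 at 2 h. The 1% CO2 groups overlapped with each other and with the control, while both NaOH groups lay above all of these, and the interaction was 3.46 ± 0.48 (adjusted p = 3.58e-06).

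Maff, a small MAF protein that pairs with other basic leucine zipper factors, lay above the control in both treatments. It had 97.8, 96.5, 108 and 106 at 4 h of 1% CO2, against 93.7, 93.1, 80.7 and 79.7 at 2 h. The NaOH libraries had 136, 143, 148 and 107 at 4 h, against 576, 821, 809 and 664 at 2 h. The control libraries had 7.80, 10.4, 8.91 and 10.4, so that all 16 treated libraries lay above them, and the interaction was 2.64 ± 0.18 (adjusted p = 2.23e-13).

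Of the 29 immediate early genes tested, 10 had a called higher interaction and none a called lower one, beside 2.59% and 1.9% of all genes. The list median was 0.57. Besides those above, Junb, Btg2, Ier5 (2.13 ± 0.37), Mafk (1.63 ± 0.20) and Nr4a3 (4.39 ± 1.03) were called. Nr4a3 was not called without replicate 2 of 4 h of 1% CO2 (2.52, adjusted p = 0.465), and these last 3 genes are named because the list holds them, after their values were seen. Fos had 1.102 ± 0.52 (adjusted p = 0.151), with changes of -1.95 at 1% CO2 and -3.05 with NaOH, and Arc had 0.36 ± 0.26 (adjusted p = 0.373), with -2.39 and -2.75. For these 2 genes the change was called lower in both treatments, and no difference between the treatments passed the test.

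**Figure D2:**
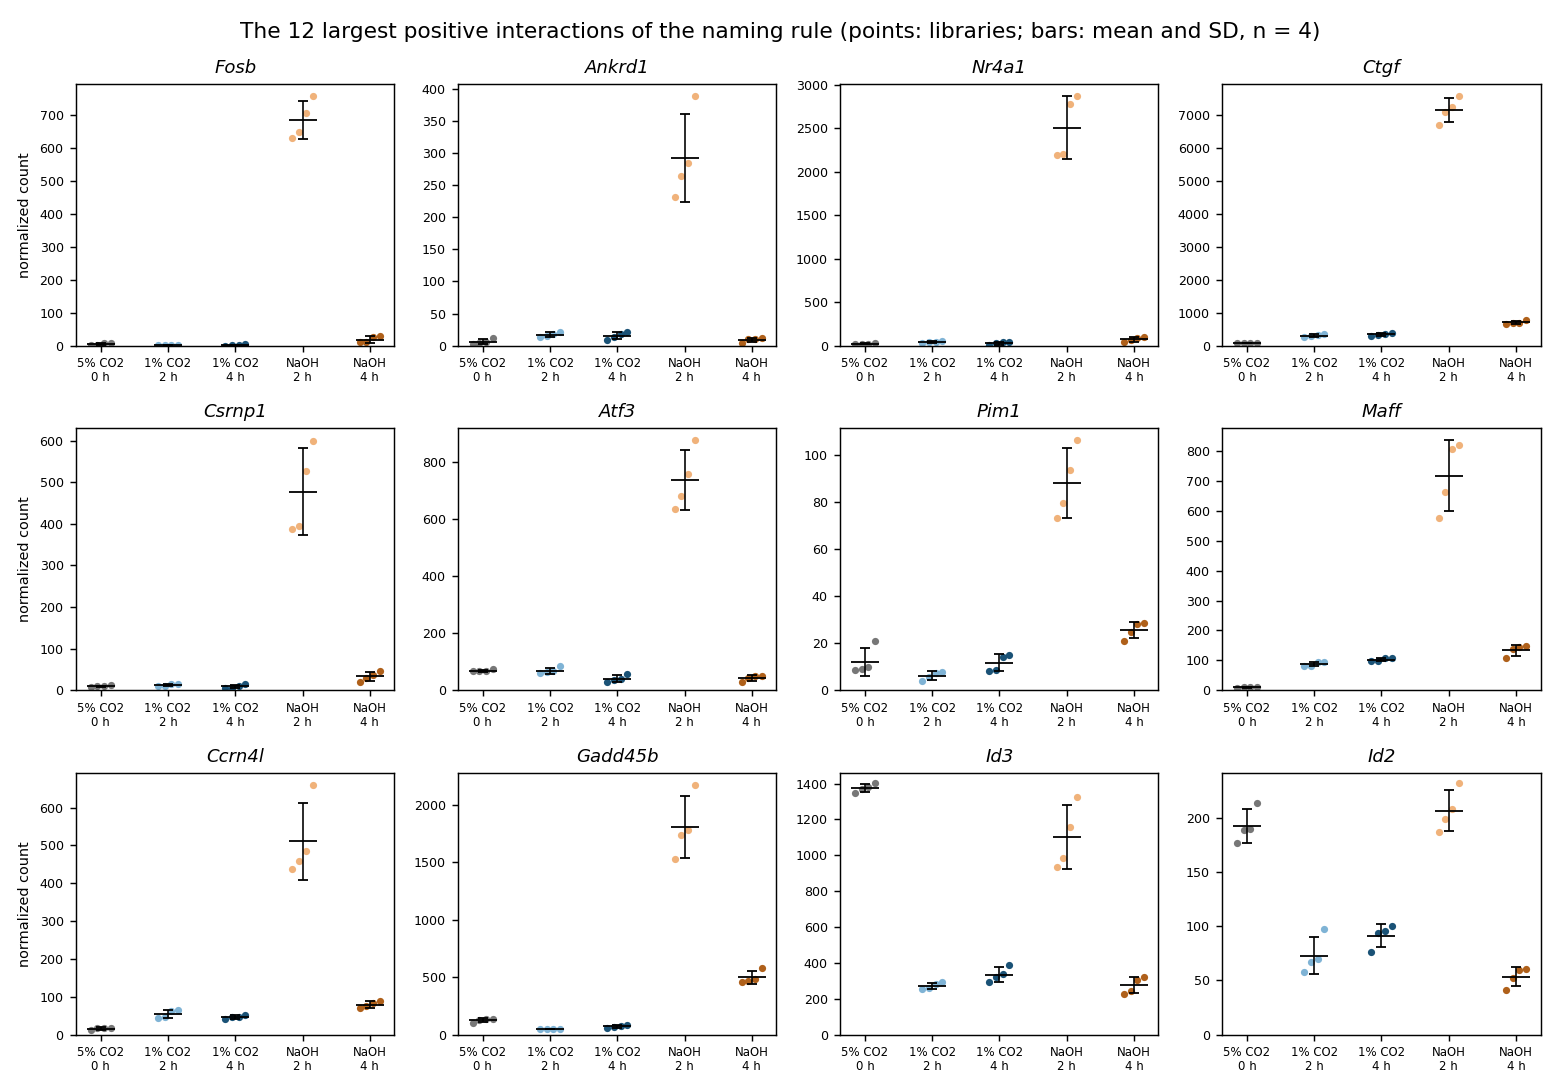
Normalized counts (vertical axis, linear, from 0) of the 12 genes with the largest positive interactions of the naming rule, by group. Points are libraries, and bars give the mean and SD of the 4 libraries. In 10 of the 12 panels the libraries of 2 h of NaOH stand above all others, while in Id3 the control libraries are higher and in Id2 they overlap with those of 2 h of NaOH.

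To show what lies just upstream of these transcripts, RefSeq promoter windows of GRCm38.p6, which run from 250 bases before to 50 bases after an annotated transcript start, are printed for Nr4a1, Ankrd1, Maff and Atf3 of the falling NaOH genes and for Adgrg1 of the rising ones. They were chosen after values and letters were seen. Capitals mark matches on either strand to TGACG, the half-site of the cyclic AMP response element that CREB and ATF proteins bind (TGACGTCA is the full element and contains it), GGAATG, which TEAD proteins bind, CACGTG, the E-box, and TGACTCA, which AP-1 dimers of FOS and JUN bind.
Nr4a1, chr15:101266596-101266895, plus strand: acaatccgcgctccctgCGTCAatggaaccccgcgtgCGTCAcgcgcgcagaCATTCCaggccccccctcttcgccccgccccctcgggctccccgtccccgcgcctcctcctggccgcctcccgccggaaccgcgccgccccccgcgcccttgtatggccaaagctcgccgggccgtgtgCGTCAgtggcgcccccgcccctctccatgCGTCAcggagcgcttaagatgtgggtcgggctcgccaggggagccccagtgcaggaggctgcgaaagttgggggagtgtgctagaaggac
Ankrd1, chr19:36119795-36120094, minus strand: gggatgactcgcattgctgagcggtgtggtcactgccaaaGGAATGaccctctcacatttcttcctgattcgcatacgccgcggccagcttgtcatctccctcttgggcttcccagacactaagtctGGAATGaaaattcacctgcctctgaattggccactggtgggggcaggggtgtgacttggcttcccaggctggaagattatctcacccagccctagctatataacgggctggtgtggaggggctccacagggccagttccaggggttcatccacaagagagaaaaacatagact
Maff, chr15:79347270-79347569, plus strand: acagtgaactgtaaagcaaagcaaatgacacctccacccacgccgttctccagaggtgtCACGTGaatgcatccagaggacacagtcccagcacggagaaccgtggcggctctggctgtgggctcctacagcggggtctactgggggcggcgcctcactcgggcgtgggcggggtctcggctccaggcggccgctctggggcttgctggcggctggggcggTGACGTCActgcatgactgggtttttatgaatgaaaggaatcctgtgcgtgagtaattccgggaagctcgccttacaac
Atf3, chr1:191183284-191183583, minus strand: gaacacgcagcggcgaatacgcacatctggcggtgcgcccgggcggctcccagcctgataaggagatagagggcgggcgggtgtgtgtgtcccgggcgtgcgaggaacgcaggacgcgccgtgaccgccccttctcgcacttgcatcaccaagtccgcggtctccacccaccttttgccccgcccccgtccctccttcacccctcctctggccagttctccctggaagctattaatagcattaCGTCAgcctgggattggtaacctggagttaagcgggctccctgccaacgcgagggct
Adgrg1, chr8:94984149-94984448, plus strand: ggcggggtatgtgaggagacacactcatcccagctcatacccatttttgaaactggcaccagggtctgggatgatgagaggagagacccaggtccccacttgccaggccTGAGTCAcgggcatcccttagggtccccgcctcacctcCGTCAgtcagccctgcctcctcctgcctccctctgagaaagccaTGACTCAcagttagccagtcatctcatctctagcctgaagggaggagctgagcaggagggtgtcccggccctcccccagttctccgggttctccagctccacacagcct

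The Nr4a1 window held 4 half-sites, which begin 233, 213, 69 and 40 bases before the start, and 1 TEAD match 198 bases before it. The Ankrd1 window held 2 TEAD matches, 210 and 123 bases before the start. In Maff the full element began 29 bases before the start and an E-box 191 bases before it, and in Atf3 a half-site began 7 bases before it. The Adgrg1 window held 2 AP-1 matches, 141 and 59 bases before the start, and a half-site 103 bases before it. Maff had 3 annotated windows and Adgrg1 2, of which 1 each is shown, the one with the most matches to the letters searched. For Nr4a1, Maff and Adgrg1 the start used lies inside the gene's annotated span, downstream of its first base.

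Windows were matched for 7865 of the 9726 tested genes. TGACG stood in at least 1 window of 58 of the 126 matched genes that had a higher interaction and fell with NaOH (46.0%), of 12 of the 71 that had a lower interaction and rose with NaOH (16.9%), and of 37.7% of all tested genes. The full element TGACGTCA stood in 8.73%, 4.23% and 3.83% of these sets. TGACTCA stood in 3.17% of the falling set, in 9 of the 71 rising genes (12.7%) and in 4.41% of all. GGAATG stood in 18.3% of the falling set, 8.45% of the rising set and 13.9% of all, CACGTG in 15.9%, 16.9% and 12.5%, and the CArG box, which SRF binds, in 3.97%, 1.41% and 1.58%. These shares describe letters in the windows, and no test was made of them.

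Targets of YAP and TEAD made up a second group, with 6 of 20 tested genes called higher (2.59% of all tested genes), none called lower (1.9% of all), and a median of 0.60. Ctgf, a secreted matricellular protein (chromosome 10, 24595442 to 24598683), had 360, 394, 280 and 324 normalized counts at 4 h of 1% CO2, against 282, 347, 314 and 274 at 2 h. Cells with NaOH had 676, 657, 701 and 772 at 4 h, against 6681, 7218, 7562 and 7075 at 2 h. The 1% CO2 groups overlapped, the NaOH groups lay far apart, and the interaction of 3.50 ± 0.13 had the smallest adjusted p of the named genes, 3.92e-21. The control libraries had 90.3, 71.7, 89.1 and 75.2, below every treated library.

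Ankrd1, a nuclear ankyrin repeat protein, had 12.8, 20.9, 18.6 and 9.48 at 4 h of 1% CO2, against 17.9, 12.96, 21.3 and 15.7 at 2 h. With NaOH it had 10.2, 11.4, 4.85 and 10.6 at 4 h, against 264, 231, 285 and 388 at 2 h. Its libraries of 4 h of NaOH thus overlapped with those of 4 h of 1% CO2, and the interaction was 4.88 ± 0.44 (adjusted p = 5.30e-10). F3, which encodes tissue factor, the starter of blood clotting, averaged 587 ± 30.4 at 4 h of 1% CO2, against 888 ± 67.3 at 2 h, and 387 ± 34.3 at 4 h of NaOH, against 1691 ± 139 at 2 h (SD, n = 4 each), an interaction of 1.53 ± 0.11. Cyr61 (1.74), Nuak2 (1.70) and Amotl2 (1.44) were also called, while Axl (0.20), Amotl1 (0.06) and Myof (0.19) did not pass the test.

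Among targets of TGFβ and BMP signals, 7 of 19 tested genes were called higher (2.59% of all) and 1 lower (1.9% of all), with a median of 0.62. Id3 and Id2, which encode inhibitors of basic helix-loop-helix factors, had another course. Id3 had 390, 338, 292 and 319 at 4 h of 1% CO2, against 280, 256, 292 and 258 at 2 h. The NaOH libraries had 321, 305, 246 and 228 at 4 h, against 987, 932, 1324 and 1160 at 2 h, and the control libraries had 1349, 1370, 1381 and 1402. At 1% CO2 Id3 thus lay under the control at both times, while with NaOH it lay closest under the control at 2 h and overlapped with the 1% CO2 libraries at 4 h, an interaction of 2.31 ± 0.15 (adjusted p = 2.23e-13). Id2 averaged 91.3 ± 10.6 at 4 h of 1% CO2, against 72.9 ± 17.1 at 2 h, and 53.3 ± 8.75 at 4 h of NaOH, against 206 ± 19.1 at 2 h (SD, n = 4 each), with 192 in the control. The inhibitory SMADs Smad7 (1.22) and Smad6 (1.31), the SMAD co-repressor Skil (1.29) and Id1 (1.19) were also called. Ldlrad4, a membrane protein that dampens TGFβ signals, was the 1 called lower (-1.35), after a rise of 1.25 with NaOH.

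Of the 20 tested genes of SRF and the actin cytoskeleton, 2 were called higher (2.59% of all tested genes), Filip1l (1.98 ± 0.22) and the LIM protein Fhl2 (1.18 ± 0.11), and the list median was 0.21. Of the 18 genes of feedback on ERK signalling, 4 were called higher (2.59% of all) and none lower (1.9% of all). They were the MAP kinase phosphatases Dusp16 (1.76 ± 0.23) and Dusp8 (1.90 ± 0.31), Phlda1 (1.77 ± 0.19) and the receptor signalling inhibitor Spry2 (1.04 ± 0.36, adjusted p = 0.0433). The call of Spry2 held in 4 of the 16 fits that left out a library, and where it was lost the interaction was 0.89 to 1.096, the lowest without replicate 1 of 2 h of NaOH (adjusted p = 0.111). Dusp6, the phosphatase most often read as a mark of ERK activity, had -0.01 ± 0.19 (adjusted p = 0.984).

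Hbegf was 1 of 3 tested ligands of the EGF receptor and the one called (2.59% of all tested genes were called higher). It had 96.8, 81.4, 92.9 and 77.4 at 4 h of 1% CO2, against 137, 132, 130 and 132 at 2 h. Cells with NaOH had 272, 286, 272 and 266 at 4 h, against 1143, 1213, 1328 and 1402 at 2 h. All 4 groups were apart from one another and above the control libraries at 18.9, 18.3, 13.4 and 17.6, and the interaction was 1.62 ± 0.14 (adjusted p = 6.92e-11).

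Stress lists also held called genes. In the p53 and GADD45 list 4 of 15 tested genes were called higher (2.59% of all), with a median of 0.41. Gadd45b, a stress protein that activates MAP kinase kinase kinases, had 83.1, 79.1, 58.2 and 67.95 at 4 h of 1% CO2, against 52.6, 51.8, 52.9 and 49.4 at 2 h, and with NaOH 583, 466, 482 and 459 at 4 h, against 1734, 1525, 2172 and 1779 at 2 h. All 1% CO2 libraries lay under the control libraries (134, 133, 99.2 and 130) and all NaOH libraries above them, with an interaction of 2.35 ± 0.18 (adjusted p = 7.42e-12). The kinases Plk2 (1.49 ± 0.17) and Plk3 (1.13 ± 0.17) and the sestrin Sesn1 (1.02 ± 0.17) were the other 3. Sesn1 lost its call, at 0.96 to 1.00, in 7 of the 16 fits that left out a library, the lowest without replicate 3 of 2 h of NaOH. Gadd45a had 0.60 ± 0.12, an adjusted p of 6.43e-04 but a size under 1.

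Heat shock genes had 3 of 13 called higher (2.59% of all). Dnajb1, an HSP40 co-chaperone, had 272, 316, 256 and 262 at 4 h of 1% CO2, against 557, 474, 694 and 540 at 2 h. With NaOH it had 296, 287, 312 and 243 at 4 h, against 1592, 2195, 2565 and 2505 at 2 h. It fell in both treatments, with log2 changes of -1.03 at 1% CO2 and -2.96 with NaOH, and the interaction was 1.93 ± 0.18 (adjusted p = 1.06e-08). Dnajb4 (2.00 ± 0.55) and the inducible HSP70 gene Hspa1b (1.11 ± 0.28) followed. Hspa1b shares near-identical sequence with a paralog and is uncertain, and it fell under the size of 1 without replicate 3 of 2 h of NaOH (0.95) or without replicate 4 of 4 h of NaOH (0.96). Junb, a JUN family factor, likewise fell in both treatments. It had 166, 170, 135 and 160 at 4 h of 1% CO2, against 424, 383, 375 and 413 at 2 h, and with NaOH 226, 232, 191 and 193 at 4 h, against 1435, 1403, 1702 and 1696 at 2 h. The 4 h libraries of 1% CO2 lay under the control (221, 225, 248 and 233) and those of NaOH overlapped with it, and the interaction was 1.55 ± 0.13 (adjusted p = 1.06e-10). Btg2 (1.65 ± 0.38), an antiproliferative factor that recruits deadenylases, and Plk3 were also among the 7 genes that fell in both treatments and fell more with NaOH.

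Herpud1, a component of the degradation of misfolded proteins, was the called member of 18 tested endoplasmic reticulum stress genes. With 2.59% of all tested genes called higher and 1.9% lower, a single called member sets neither this list nor that of the ATF4 genes apart. The values of Herpud1 follow first. It had 596, 573, 575 and 482 at 4 h of 1% CO2, against 536, 481, 508 and 595 at 2 h, and with NaOH 361, 395, 364 and 422 at 4 h, against 1121, 1226, 1194 and 1249 at 2 h, an interaction of 1.71 ± 0.12 (adjusted p = 2.60e-13). Chac1, which breaks down glutathione and was the called member of 21 ATF4 genes, had changes of 0.70 ± 0.10 at 1% CO2 and -0.88 ± 0.10 with NaOH, both under the size of 1. It had 321, 330, 326 and 333 at 4 h of 1% CO2, against 201, 223, 173 and 209 at 2 h, and with NaOH 223, 203, 196 and 169 at 4 h, against 345, 343, 368 and 394 at 2 h. Its groups did not overlap between the times in either treatment, in opposite directions, and the interaction was 1.57 ± 0.15 (adjusted p = 6.03e-10).

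Changes of opposite sign were also seen for Adamts1, a secreted metalloprotease and the called member of 28 matrix genes. It had 222, 228, 260 and 198 at 4 h of 1% CO2, against 169, 136, 163 and 140 at 2 h, and with NaOH 81.3, 85.9, 88.3 and 102 at 4 h, against 201, 221, 239 and 275 at 2 h, an interaction of 1.97 ± 0.17 (adjusted p = 5.22e-11). Nolc1, a nucleolar chaperone of ribosome assembly and the called member of 32 ribosome biogenesis genes, averaged 81.8 ± 5.89 at 4 h of 1% CO2, against 49.04 ± 6.00 at 2 h, and 55.7 ± 12.6 at 4 h of NaOH, against 88.7 ± 11.4 at 2 h (SD, n = 4 each). With 2.59% of all tested genes called higher, a single called member sets neither the matrix nor the ribosome biogenesis list apart.

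NF-κB targets and chemokines were split, with 2 of 15 called higher (2.59% of all), 1 called lower (1.9% of all) and a median of -0.35. Cxcl1, a neutrophil chemokine, had 2.02 ± 0.40, and Ptgs2, the inducible cyclooxygenase, had 1.11 ± 0.31, which came to 1.00 without replicate 1 of 4 h of 1% CO2 and to 0.97 without replicate 2 of 2 h of NaOH, both under the threshold. Ccl7, a monocyte chemokine, had -1.09 ± 0.19, and -0.99 without replicate 3 of 4 h of NaOH. Clock genes were also split, beside the same shares of all genes. Of 14 tested, Nfil3 (1.77 ± 0.20) and Dbp (1.36 ± 0.18) were called higher and the repressor Ciart (-1.97 ± 0.52) lower, and the mean of Ciart was under 20 normalized counts in every group. Ccrn4l, the circadian enzyme nocturnin, averaged 46.5 ± 4.14 at 4 h of 1% CO2, against 54.5 ± 10.6 at 2 h, and 79.6 ± 8.20 at 4 h of NaOH, against 510 ± 101 at 2 h (SD, n = 4 each), an interaction of 2.44 ± 0.22. Pim1, a serine/threonine kinase, averaged 11.6 ± 3.62 at 4 h of 1% CO2, against 6.21 ± 1.74 at 2 h, and 25.6 ± 3.50 at 4 h of NaOH, against 88.2 ± 14.8 at 2 h, an interaction of 2.66 ± 0.44.

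**Figure D3:**
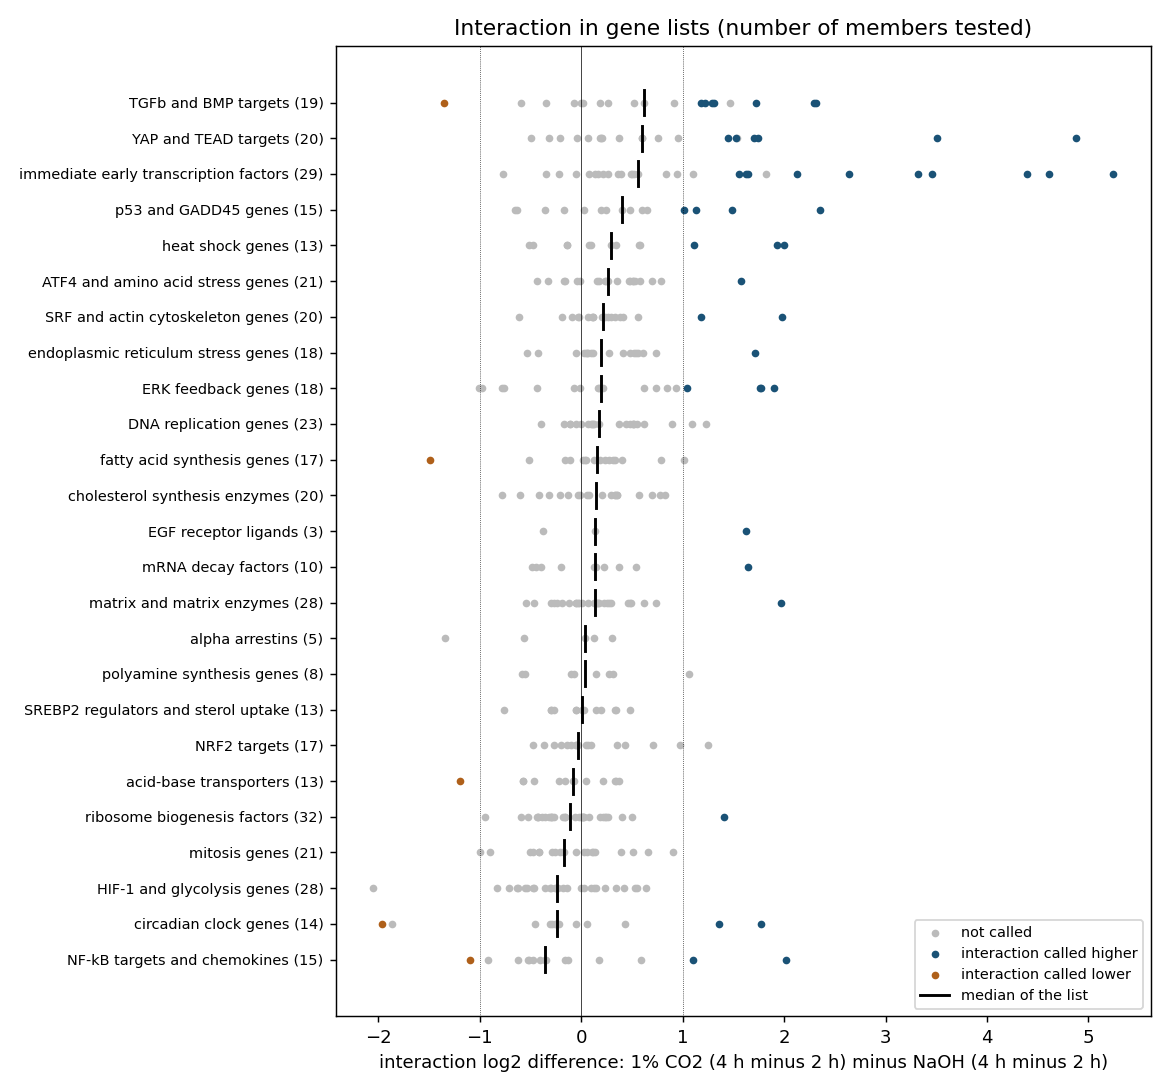
Interaction log2 difference (horizontal axis) of the tested members of 25 gene lists, 1 point per gene, with a vertical bar at each list's median and dotted lines at the size threshold of 1. The lists of TGFβ and BMP targets, YAP and TEAD targets and immediate early genes have the highest medians, 0.62, 0.60 and 0.57, and 8 of the 25 lists hold no called gene.

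Over the 160 genes of higher interaction that fell with NaOH, 109 lay above the control in the mean of the 2 h NaOH libraries, and 89 lay nearer to the control at 4 h than at 2 h of NaOH. Over all 9726 tested genes these counts were 4646 and 4061. Their median difference from the control was 0.97 at 2 h and -0.60 at 4 h of NaOH, and at 1% CO2 it was -0.21 at 2 h and -0.18 at 4 h. These counts describe group means on the log2 scale with 1 added, and no test was made of them.

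Among the genes of the naming rule, those with a lower interaction had smaller values in size, from -2.15 for the first. Outside the rule, Zfp281 was called lower at -2.84, with a highest treated group mean of 9.88 normalized counts. The first gene of the rule was Nav2, a cytoskeletal protein of the neuron navigator family, which rose with NaOH and had no called change at 1% CO2. It had 46.6, 59.3, 71.8 and 75.8 normalized counts at 4 h of 1% CO2, against 42.1, 34.8, 29.7 and 33.7 at 2 h, a change of 0.83 ± 0.19. With NaOH the values were 162, 118, 164 and 127 at 4 h, against 16.7, 25.97, 10.96 and 22.4 at 2 h, a change of 2.98 ± 0.20. The times did not overlap in either treatment, and the interaction was -2.15 ± 0.29 (adjusted p = 2.03e-06).

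Hilpda, which binds lipid droplets and inhibits the main triglyceride lipase (chromosome 6, 29272488 to 29275449), had 97.8, 102, 124 and 107 at 4 h of 1% CO2, against 65.2, 96.4, 99.2 and 80.8 at 2 h. The NaOH libraries had 202, 194, 245 and 230 at 4 h, against 46.4, 49.4, 47.5 and 45.8 at 2 h. The 2 h NaOH libraries lay under the control libraries (71.3, 66.9, 66.8 and 68.8) and the 4 h ones above all others, so that the order of the treatments changed between the times, though at 2 h the gap was not called, and the interaction was -1.89 ± 0.19 (adjusted p = 3.07e-09). Lpin1, a phosphatidate phosphatase of triglyceride synthesis, had 127, 149, 131 and 118 at 4 h of 1% CO2, against 114, 113, 111 and 84.2 at 2 h. Cells with NaOH had 72.9, 65.3, 56.3 and 67.6 at 4 h, against 13.9, 23.4, 9.74 and 29.8 at 2 h, and the control libraries had 55.7, 72.5, 88.01 and 73.6. It thus lay below the control at 2 h of NaOH and among the control libraries at 4 h, with an interaction of -1.49 ± 0.27 (adjusted p = 1.94e-04). It was the called member of 17 tested fatty acid synthesis genes, beside 1.9% of all tested genes called lower.

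Glis1, a Krüppel-like zinc finger factor, had 9.14, 19.8, 16.1 and 12.6 at 4 h of 1% CO2, against 19.99, 24.3, 28.8 and 22.4 at 2 h. With NaOH it had 260, 285, 219 and 230 at 4 h, against 106, 127, 98.7 and 119 at 2 h. The 4 h libraries of 1% CO2 lay below the control libraries at 41.2, 41.4, 35.6 and 27.2 and all NaOH libraries above them, and the interaction was -1.92 ± 0.28 (adjusted p = 6.27e-06). Adgrg1, an adhesion G protein-coupled receptor, had its 4 h libraries of 1% CO2 likewise under the control, with 10.96, 13.9, 17.3 and 14.2 at 4 h of 1% CO2, against 32.6, 21.9, 12.1 and 20.2 at 2 h, and with NaOH 117, 121, 133 and 124 at 4 h, against 67.8, 75.3, 80.4 and 28.7 at 2 h. Replicate 4 of 2 h of NaOH was the low one, among the control libraries at 29.5, 23.9, 36.8 and 30.4, and the interaction was -1.64 ± 0.38 (adjusted p = 0.00303).

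Efna4, an ephrin ligand, had 28.3, 13.9, 16.1 and 30.02 at 4 h of 1% CO2, against 14.7, 24.3, 18.6 and 15.7 at 2 h, and with NaOH 65.2, 62.98, 39.8 and 43.3 at 4 h, against 12.1, 15.6, 23.1 and 9.58 at 2 h. The control libraries had 67.99, 62.95, 62.4 and 62.4. All libraries of 1% CO2 and of 2 h of NaOH lay under the control, and 2 of the 4 h NaOH libraries reached its range, with an interaction of -1.61 ± 0.38. Atxn1, a transcriptional co-repressor, was among the genes with no called change in either treatment, with 76.7, 58.1, 78.03 and 56.9 at 4 h of 1% CO2, against 136, 134, 132 and 129 at 2 h, and with NaOH 155, 166, 185 and 165 at 4 h, against 117, 101, 105 and 102 at 2 h. The times did not overlap in either treatment, in opposite directions, and the interaction was -1.60 ± 0.17 (adjusted p = 1.25e-08).

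Prr5, a subunit of mTOR complex 2, averaged 106 ± 25.9 at 4 h of 1% CO2, against 125 ± 31.9 at 2 h, and 252 ± 31.7 at 4 h of NaOH, against 98.6 ± 20.9 at 2 h (SD, n = 4 each). Aqp5, a water channel, averaged 16.8 ± 2.83 at 4 h of 1% CO2, against 18.8 ± 6.48 at 2 h, and 52.9 ± 12.1 at 4 h of NaOH, against 15.1 ± 8.60 at 2 h. The interactions were -1.60 ± 0.25 and -1.79 ± 0.38. The splicing factor Ptbp3 (-1.49 ± 0.30), the death receptor Tnfrsf25 (-1.45 ± 0.24) and the read-through locus Zfp91Cntf (-1.60 ± 0.35), whose counts cannot be told apart from those of the genes it spans, completed the 12 largest. Slc26a2, a sulfate transporter, was the called member of 13 tested acid-base and anion transporters (-1.19 ± 0.30, adjusted p = 0.00520), beside 1.9% of all tested genes called lower.

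**Figure D4:**
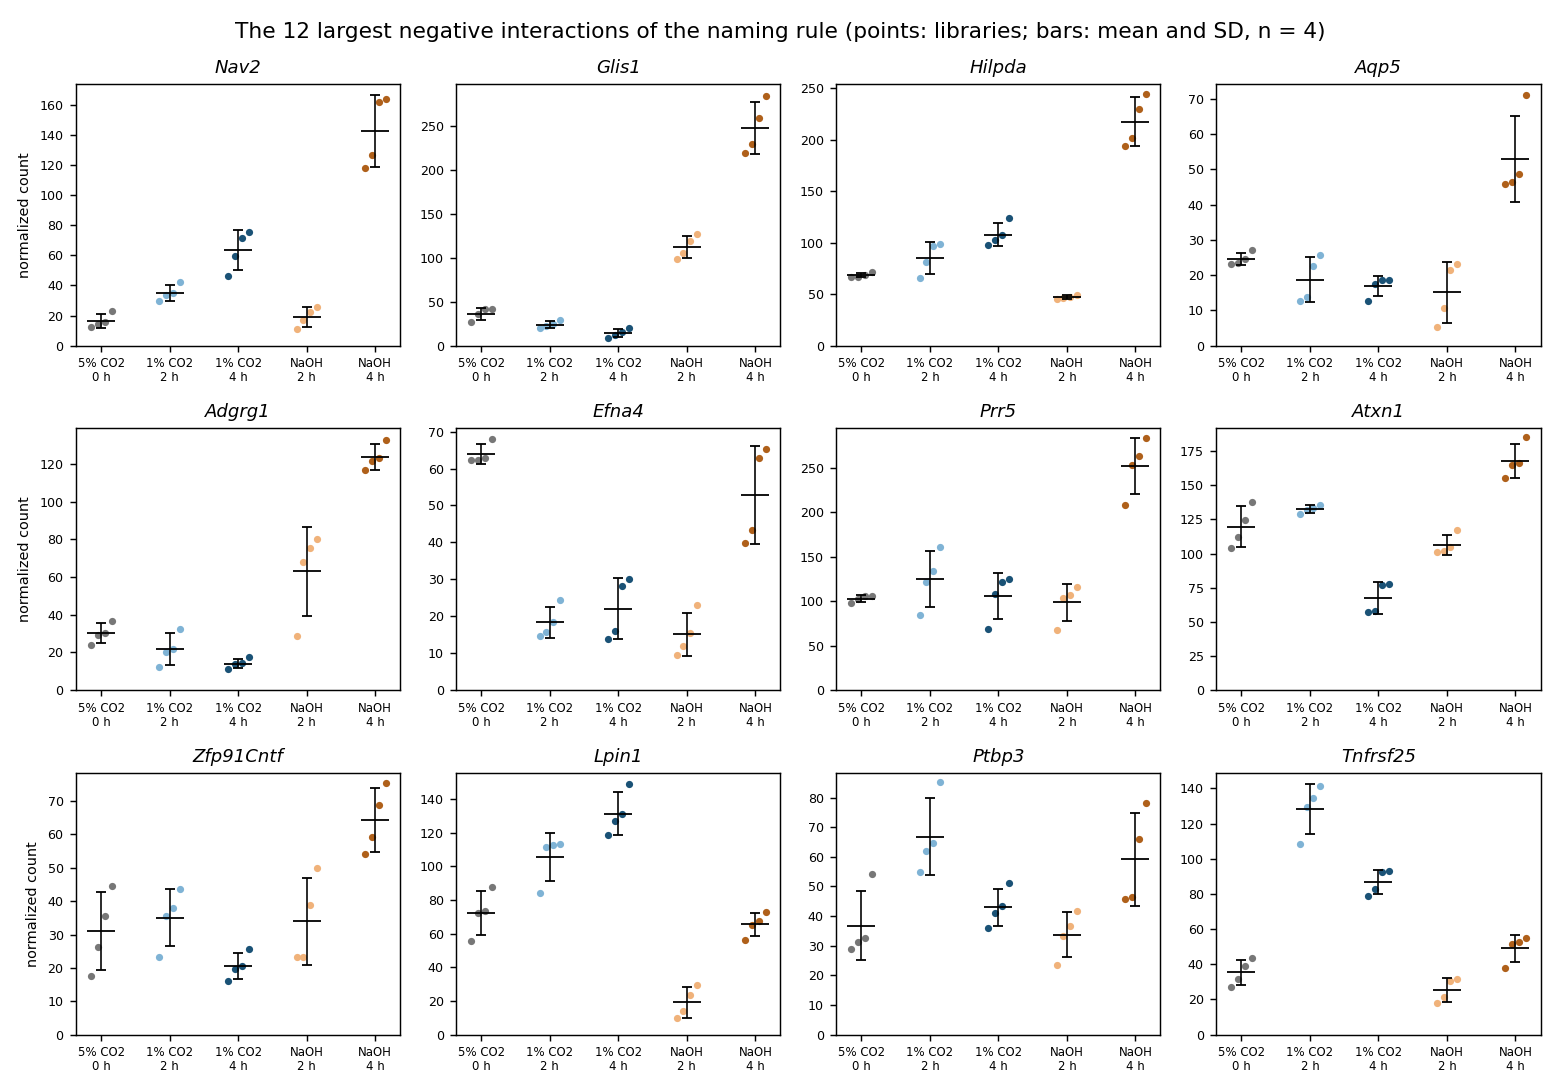
Normalized counts (vertical axis, linear, from 0) of the 12 genes with the largest negative interactions of the naming rule, by group. Points are libraries, and bars give the mean and SD of the 4 libraries. In 8 of the 12 panels the 4 libraries of 4 h of NaOH stand above all others, while in Tnfrsf25 the 1% CO2 libraries stand highest.

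Of the 88 genes of lower interaction that rose with NaOH, 18 lay above the control at 2 h of NaOH and 53 lay nearer to it at 4 h than at 2 h, beside the same 4646 and 4061 of all 9726 genes, with median differences from the control of -0.90 at 2 h and 0.48 at 4 h. Tfap4, a helix-loop-helix factor that MYC drives, was the 1 gene that rose in both treatments. It had 67.6, 75.6, 73.1 and 61.6 at 4 h of 1% CO2, against 35.8, 28.3, 25.04 and 24.7 at 2 h, and with NaOH 69.5, 56.1, 65.04 and 66.5 at 4 h, against 16.7, 18.2, 7.31 and 11.7 at 2 h. The 4 h libraries overlapped between the treatments, and the interaction of -1.01 ± 0.29 stood at the size threshold and was called in 9 of the 16 fits that left out a library, falling in size to -0.80 without replicate 3 of 2 h of NaOH.

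In 16 called genes a change was called at 1% CO2 and not with NaOH, and those named here were chosen after their values were seen. Tanc2, a scaffold protein, had 450, 445, 416 and 468 at 4 h of 1% CO2, against 208, 203, 230 and 231 at 2 h. With NaOH the values were 227, 246, 250 and 245 at 4 h, against 241, 262, 248 and 231 at 2 h. The 4 h libraries of 1% CO2 lay above all others, at 1.03 ± 0.08 log2 against -0.01 ± 0.09 with NaOH, and the interaction was 1.04 ± 0.12, which stood at 1.00, under the threshold, without replicate 2 of 2 h of 1% CO2 and at 0.99 with libraries scaled by total counts. Wfdc18, a secreted protein with a whey acidic protein core, had 38.4, 55.8, 35.9 and 39.5 at 4 h of 1% CO2, against 5.26, 8.91, 15.8 and 8.98 at 2 h, and with NaOH 1.70, 1.145, 2.91 and 1.06 at 4 h, against 2.79, 5.19, 2.44 and 10.6 at 2 h, an interaction of 3.63 ± 0.68 (adjusted p = 2.69e-04). Its changes were 2.09 ± 0.27 at 1% CO2 and -1.54 ± 0.61 with NaOH, a change that missed the call (adjusted p = 0.0518). The transcript Gm14005 averaged 206 ± 13.0 at 4 h of 1% CO2, against 78.9 ± 10.7 at 2 h, and 229 ± 28.1 at 4 h of NaOH, against 227 ± 27.3 at 2 h (SD, n = 4 each), with 36.4 in the control.

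Atp2b4, a calcium pump of the plasma membrane, was among the 8 genes that fell at 1% CO2. It had 32.9, 25.6, 38.4 and 23.7 at 4 h of 1% CO2, against 92.6, 65.6, 51.9 and 62.8 at 2 h. The NaOH libraries had 145, 121, 146 and 152 at 4 h, against 124, 127, 110 and 131 at 2 h. The change was -1.15 ± 0.18 at 1% CO2 (adjusted p = 1.92e-05) and 0.20 ± 0.13 with NaOH (adjusted p = 0.254), and the interaction -1.35 ± 0.22.

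The interaction is also the gap between the treatments at 4 h minus that at 2 h. At 2 h, 267 genes were called higher at 1% CO2 than with NaOH (2.75%) and 366 lower (3.76%), and at 4 h, 321 were higher (3.3%) and 309 lower (3.18%). Scaling by total counts alone, which moved the median gap of all genes at 2 h to 0.12, turned the 2 h counts into 422 higher and 289 lower and the 4 h counts into 416 higher and 253 lower. Among the genes of higher interaction the gap was called at 2 h alone in 80, at 4 h alone in 64, at both times with the same sign in 21, with opposite signs in 3 and at neither time in 84. Among those of lower interaction it was called at 2 h alone in 61, at 4 h alone in 31, at both times with the same sign in 4 and at neither time in 89.

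The 3 genes whose gap changed sign had low counts. Rgs3, which switches off G protein signals, had 11.9, 6.98, 11.2 and 12.6 at 4 h of 1% CO2, against 14.7, 6.48, 15.8 and 6.73 at 2 h, and with NaOH 2.54, 6.87, 2.91 and 3.17 at 4 h, against 13.9, 20.8, 34.1 and 36.2 at 2 h, an interaction of 2.75 ± 0.55. Mxd1, an antagonist of MYC, had 7.31, 9.30, 7.43 and 9.48 at 4 h of 1% CO2, against 6.31, 1.62, 4.64 and 8.98 at 2 h, and with NaOH 3.39, 1.145, 6.79 and 1.06 at 4 h, against 12.1, 5.19, 23.1 and 21.3 at 2 h, an interaction of 3.01 ± 0.66. Mpv17l, a small membrane protein, had 2.30 ± 0.53.

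The enzymes of cholesterol synthesis, which the study followed, held no called gene among 20 tested, with a median of 0.14 and a range of -0.78 to 0.83. As 2.59% of all tested genes were called higher and 1.9% lower, a count of 0 does not set so short a list apart. Both ends passed the adjusted p but not the size. Hmgcs1, an early enzyme of the pathway, had 2083, 2020, 2459 and 2460 at 4 h of 1% CO2, against 2524, 2396, 2265 and 2400 at 2 h. Cells with NaOH had 1690, 1799, 2040 and 2014 at 4 h, against 1165, 1260, 1045 and 1198 at 2 h. The 1% CO2 groups overlapped while the NaOH groups did not, and the interaction was -0.78 ± 0.11 (adjusted p = 4.17e-06). Dhcr7, the last enzyme of the Kandutsch-Russell branch, had 729, 692, 733 and 728 at 4 h of 1% CO2, against 396, 362, 330 and 396 at 2 h. With NaOH it had 211, 216, 243 and 224 at 4 h, against 219, 182, 179 and 199 at 2 h, and the interaction was 0.77 ± 0.12 (adjusted p = 3.36e-05), from 0.96 ± 0.08 at 1% CO2 and 0.19 ± 0.09 with NaOH. The interaction sets 4 h against 2 h and does not measure how far a gene stood from the control. The control libraries averaged 831.9 for Hmgcs1 and 188.5 for Dhcr7. Relative to NaOH, Hmgcs1 was called higher at 2 h of 1% CO2 (1.04) and Dhcr7 at 4 h (1.69).

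Mvk (0.83 ± 0.13, adjusted p = 3.36e-05) and Ebp (0.70 ± 0.14, adjusted p = 5.36e-04) also had positive values under the size of 1. Sqle, squalene epoxidase, had -0.31 ± 0.13 (adjusted p = 0.0958) and the isomerase Idi1 had -0.41 ± 0.58 (adjusted p = 0.697), where Idi1 had 0 to 15.5 normalized counts per treated library. Among 13 tested regulators of SREBP2 and sterol uptake none was called, beside 2.59% of all tested genes called higher and 1.9% lower. Insig1 stood at -0.30 ± 0.14 and Srebf2 at 0.19 ± 0.14. A difference that misses the threshold does not show that the treatments act alike.

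Of 28 tested genes of HIF-1 and glycolysis none was called either, beside 2.59% of all tested genes called higher and 1.9% lower. The median was -0.24 and the range -2.05 to 0.64. The lowest member passed the size of 1 but not the adjusted p. Hilpda, called lower above, was not on this list, so the count speaks only for the listed genes. Slc2a1, the glucose transporter GLUT1, had 2619, 2708, 2289 and 2486 at 4 h of 1% CO2, against 2395, 2382, 2478 and 2275 at 2 h, and with NaOH 3980, 4050, 3908 and 3907 at 4 h, against 2595, 2358, 2550 and 2779 at 2 h. The 4 h NaOH libraries lay above all others, and the interaction was -0.54 ± 0.10 (adjusted p = 1.62e-04), with Ldha, which makes lactate, at -0.46 ± 0.10 (adjusted p = 0.00158). Angptl4, an inhibitor of lipoprotein lipase, rose in both treatments. It had 203, 235, 275 and 275 at 4 h of 1% CO2, against 68.4, 73.7, 76.97 and 95.4 at 2 h, and with NaOH 64.4, 58.4, 59.2 and 49.6 at 4 h, against 12.1, 28.6, 24.4 and 20.2 at 2 h. The changes were 1.65 ± 0.14 and 1.55 ± 0.23, and their difference was 0.09 ± 0.30 (adjusted p = 0.874). No gene was called among 17 tested NRF2 targets, 23 of DNA replication, 21 of mitosis, 8 of polyamine synthesis and 5 alpha arrestins. Beside the shares of all genes given above, having no call does not set lists this short apart. Each list had a member past the size of 1 that missed the adjusted p. In the order given, the furthest stood at 1.25, 1.23, -1.001, 1.07 and -1.34.

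The 173 genes called with no called change in either treatment had fitted changes of opposite sign, which the call rule nearly requires. The highest of their 4 treated group means was 51.9 normalized counts at the median. It was 72.3 in the other 264 called genes and 108.9 over all tested genes, so both called sets lay under the tested genes as a whole.

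The 16 libraries held 1325293 to 4260274 counts, with a median of 3281111, and replicate 2 of 2 h of NaOH was the shallowest. Of 12 fibroblast markers 11 were in the table, and they summed to 120282 to 161940 normalized counts in each library. Of 8 epithelial markers Cdh1 and Krt14 were in the table, and of 8 immune markers Cd68 and Lyz2, with sums of 97.4 to 202 for the immune pair. No endothelial or adipocyte marker was in the table. The epithelial pair summed to 218 to 270 at 4 h of 1% CO2, against 527 to 614 at 2 h. With NaOH the pair summed to 624 to 760 at 4 h, against 837 to 968 at 2 h, with 769 to 893 in the control. Cdh1 averaged under 5 normalized counts and was not tested, so these sums rest mainly on Krt14. The muscle genes Des, Acta1 and Tnnt3 summed to 254.5 to 330.5 with NaOH, against 56.8 to 77.4 at 1% CO2, with 25.6 to 37.9 in the control. Their part in the results was not tested.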

How the data were processed

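RNA of bulk NIH3T3 cultures was measured by MARS-seq, which counts the 3' ends of transcripts with unique molecular identifiers. According to the study's methods and the submitters' notes, the authors sequenced the libraries with 75-base kits, trimmed the reads with cutadapt, aligned them to mm10 with STAR in the UTAP pipeline (version 2.4.2a in the submitters' notes, while the study's methods name another) and counted them with HTSeq over RefSeq 3' ends, extended by 1000 bases upstream and 100 bases downstream. The deposited counts are molecule counts per gene, not normalized. The deposited normalized columns, a signal made by the authors with DESeq2 size factors, were used only to check normalized counts recomputed from the counts (deviation at most 5.09e-11). The filter used TMM-scaled counts.

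All 20 libraries entered 1 fit of 5 groups in edgeR 4.0.16 (R 4.3.3, limma 3.58.1), with TMM scaling, robust quasi-likelihood dispersions and no replicate block. Genes whose normalized count averaged 5 or more were kept, 9726 of 11075. P-values were adjusted by Benjamini-Hochberg over all of these. Calls needed both an adjusted p ≤ 0.05 and a log2 difference of 1 or more in size. Printed levels are counts scaled by TMM library size to a mean of 3396000. Totals of 1325293 to 5640523 counts per library limit the precision of low genes, and errors cover these libraries only. The script was tested on simulated data.

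The named genes were the 12 largest in each direction that were called, stayed called on leaving out each of the 16 libraries and had a group mean of at least 50, without provisional gene names, together with the 3 called members of each list with the smallest adjusted p, and genes the study discusses. Further list members, genes called at 1% CO2 and not with NaOH, and genes whose gap changed sign were named after their values were seen. Members, lists and rules were chosen with earlier results of these data known. Alternatives were other scalings (DESeq2 size factors or total counts), no filter or a mean of at least 20, DESeq2 1.42.0, a test against the threshold (glmTreat), the 16 treated libraries alone, the adjusted p alone, a replicate block and leaving out each library. The values of some genes the rule names are not reported here.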

Additional observations from a re-analysis of the deposited data

Results flagged for a closer look

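Of the interaction tests, 252 genes had a higher and 185 a lower value, meaning that the change between 2 and 4 h differed between 1% CO2 and NaOH. In 3 genes the gap between the treatments was called at both times with opposite signs, Mxd1 (interaction 3.01), Rgs3 (2.75) and Mpv17l (2.30).

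Single libraries stood apart from the other 3 of their group, by Dixon's criterion, in 11 of 200 checks on 40 genes, where chance gives about 1 in 20. At 4 h of 1% CO2, Phlda1 was high in replicate 1 (401 normalized counts, against 354 to 359 in the others) and Dhcr7 low in replicate 2 (692, against 728 to 733). At 2 h of 1% CO2, Lpin1 was low in replicate 4 (84.2, against 111 to 114) and Mpv17l was low in replicate 1 (4.21, against 7.85 to 8.35). At 4 h of NaOH, Aqp5 (71.0, against 45.8 to 48.5) and Rgs3 (6.87, against 2.54 to 3.17) were high in replicate 2. At 2 h of NaOH, Phlda1 was low in replicate 1 (1258, against 2091 to 2220). In the control, Nr4a1 was high in replicate 3 (26.7, against 18.3 to 19.2), Pim1 high in replicate 2 (20.7, against 8.36 to 10.0), Gadd45b low in replicate 3 (99.2, against 130 to 134) and Efna4 high in replicate 1 (68.0, against 62.4 to 63.0).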

How the results depend on the processing

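The interaction gave 252 higher and 185 lower genes. None of the 437 genes changed the sign of its interaction under any alternative that fitted it, but total counts removed the excess of higher over lower genes (220 and 221) and turned that of the gap at 2 h. DESeq2 size factors gave 248 and 187 (433 of the 437 called genes kept), no filter 260 and 192 (429), the 16 libraries alone 235 and 176 (408), DESeq2 229 and 169 (394), DESeq2 with shrinkage 207 and 135 (330), total counts 220 and 221 (405), and a mean count of at least 20 gave 194 and 146 (336, with 101 not fitted). Leaving out 1 library gave 221 to 265 higher and 146 to 213 lower. Replicate numbers did not pair the libraries, since 24 same-numbered pairs had correlations of -0.21 to 0.168 and 0 of 16 libraries matched its own number best, and a replicate block gave 247 and 182 (421 kept). The highest correlations, 0.282, 0.232 and 0.223, joined replicate 3 of 2 h of 1% CO2, replicate 2 of 4 h of 1% CO2 and replicate 4 of 2 h of NaOH. What these libraries share was not tested. Of the 437 genes, 190 had no treated group mean of 50, beside 3078 of all 9726 tested genes. Depth limits the precision of such low genes, and its part in the calls was not tested.

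The test against the size threshold kept 38 higher and 3 lower genes, and gave 2 and 5 for 4 h against 2 h of 1% CO2, 31 and 103 for NaOH, 35 and 146 for the gap at 2 h and 33 and 93 at 4 h. In the class counts here and below, alone means that the change in the other treatment was not called, not that it was absent. In the main fit, F3 and Hbegf were in the class that fell with NaOH alone. Both also fell at 1% CO2, past the adjusted p but under the size of 1. By class the test left 32 that fell with NaOH alone, 1 that rose at 1% CO2 alone, 0 that fell in both and 5 with neither. Among lower genes it left 2 that rose with NaOH alone, 0 that rose in both, 0 that fell at 1% CO2 and 1 with neither. The adjusted p alone gave 772 and 692 for the interaction, 753 and 734 at 1% CO2 and 1556 and 1605 with NaOH. It gave gaps of 1454 and 1662 at 2 h and 1589 and 1866 at 4 h. For its classes the interaction kept the size limit of 1, and only the changes between 2 and 4 h were called without it. Of the 252 higher genes, 19 then rose at 1% CO2, 25 fell in both and 17 had neither. Of the 185 lower genes, 8 rose in both, 22 fell at 1% CO2 and 9 had neither. A mean of at least 20 gave 29 and 30 at 1% CO2, 155 and 239 with NaOH, 130 and 237 for the gap at 2 h, 158 higher at 4 h, and 4 and 2 in the classes that rose and fell at 1% CO2. DESeq2 with shrinkage gave 35 and 33 at 1% CO2, 169 and 260 with NaOH, 144 higher for the gap at 2 h and 190 at 4 h, and classes of 0 that rose in both, 4 that fell at 1% CO2 and 54 that rose with NaOH alone. Total counts gave 422 higher for the gap at 2 h and 5 that rose at 1% CO2. DESeq2 size factors, DESeq2 without shrinkage and the 16 libraries gave 2 that rose in both. Apart from fewer genes tested with a mean of at least 20, the cause was not tested.

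Leaving out 1 library gave 53 to 74 and 59 to 70 at 1% CO2, 243 to 287 and 361 to 400 with NaOH, gaps of 235 to 307 and 335 to 374 at 2 h, and 298 to 351 and 296 to 330 at 4 h. By class it gave 144 to 169 that fell with NaOH alone, 5 to 8 that fell in both, 6 to 14 that rose at 1% CO2 (14 without replicate 3 of 2 h of 1% CO2), 62 to 85 higher with neither, 76 to 105 that rose with NaOH alone, 0 to 2 that rose in both, 5 to 13 that fell at 1% CO2 (13 without replicate 3 of 4 h of 1% CO2, 5 without replicate 3 of 2 h of 1% CO2 or replicate 3 of 4 h of NaOH) and 63 to 100 lower with neither.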
